A study of Mus musculus with 2 samples.

Results

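Igf1 signalling and the Igf binding proteins were examined through 8 genes in cells of mouse inter-limb somites: the ligand Igf1, the receptors Igf1r and Insr, and the binding proteins Igfbp2, Igfbp3, Igfbp4, Igfbp5 and Igfbp7. These members were found by symbol, and they are 8 of the 27998 genes counted. All 8 had at least 1 UMI at both stages, with 68606 UMIs in the E9.5 library and 205850 in the E11.5 library. A UMI (unique molecular identifier) is a random tag that lets the copies of 1 captured RNA molecule be counted once.

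Insulin-like growth factors are secreted peptides that bind the tyrosine kinase receptor encoded by Igf1r, and with lower affinity the insulin receptor encoded by Insr, and act through PI3 kinase and Akt on growth and survival. The binding proteins are secreted too and hold the ligand in the extracellular space, where they can slow its access to the receptor or carry it, and proteases release it from them. In muscle this pathway is known for the growth of myoblasts and myofibres, and Igfbp5 is a known product of differentiating muscle cells.

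The 2 libraries came from wild-type C57BL/6 embryos, 1 at embryonic day 9.5 (E9.5) and 1 at embryonic day 11.5 (E11.5), each from the pooled inter-limb somites of 3 embryos, with no treatment or added allele. Of 10121 barcodes at E9.5, 9851 cells passed the filter of at least 200 and fewer than 6500 genes and under 15% mitochondrial UMIs, with a median of 12462 UMIs; at E11.5, 9595 of 10167 passed, with a median of 12479. With 1 library a stage, stage and library cannot be told apart, and no test of a difference between stages or classes was possible. Levels are given as UMIs of the gene per 1000000 UMIs of the class (UPM), with exact Poisson 95% intervals in parentheses, and log2 ratios with exact 95% intervals of the ratio of a pair of counts. These intervals cover counting error only, with every UMI taken as independent, and say nothing of the spread between cells or between embryos. They are too narrow where few cells held many UMIs. Classes called separated below are those whose ratio interval left out equal levels, by counting error alone. Classes further apart in an order can be separated where neighbours are not. Each molecule is counted by 1 tag at its 3′ end. Levels are set side by side within a gene and never between genes.

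Cells were sorted into classes by fixed marker lists that hold none of the 8 genes. Mesenchyme held 4005 cells at E9.5 and 6288 at E11.5, muscle cells 953 and 1410, endothelial cells 364 and 88, neural progenitors 2273 and 165, and neurons 289 and 486. A muscle cell had at least 2 of the 7 genes Pax3, Pax7, Myf5, Myod1, Myog, Dmrt2 and Lbx1. Muscle cells were ordered into steps. These were progenitors (535 and 192 cells), the Myf5 step (370 and 223) and the Myod1 step (3 and 260). Then came the early Myog step (24 and 232) and sarcomere myocytes (7 and 356). Progenitors had Pax3 or Pax7 and no Myf5, Myod1 or Myog, so each held at least 2 of Pax3, Pax7, Dmrt2 and Lbx1. Of 5 markers held out of each gate, all 5 endothelial and all 5 muscle markers were highest in their own class at both stages. Of the 5 mesenchyme markers 4 were so in the E9.5 library and 2 in the E11.5 library, and of the 5 neural markers 2 and 4.

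The muscle progenitor class of E11.5 stood apart and bears on every value given for it. Of its 192 cells, 178 (92.71%) also met the mesenchyme gate and 143 (74.48%) lay in clusters named mesenchyme, and the 12 genes of the mesenchyme list summed to 2485.4 UPM in it, against 2786.8 UPM in mesenchyme and 353 UPM in sarcomere myocytes. Myf5, Myod1 and Myog are at 0 in it by the rule that defines it. Values of Igf1, Igf1r, Igfbp2, Igfbp3, Igfbp4 and Igfbp5 in muscle steps are therefore also given for the cells that lay in muscle clusters. These clusters were made without the 8 genes. No such values are given for other genes. At E9.5, 465 of 535 progenitors (86.92%) lay in muscle clusters, and the 12 genes summed to 516.8 UPM against 1355.7 UPM in mesenchyme.

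The stretches of 250 bases before the start of Igfbp3, Igfbp4 and Igfbp7 are shown, because they shared a class and not a layout of motifs. These are the binding protein genes whose highest level among classes of at least 50 cells was endothelial at both stages (below). For Igfbp7 at E9.5 that rank rested on 6 of 23 UMIs. It was not separated from the next class, lateral plate (log2 ratio 0.83, -1.24 to 3.10). The stretches were read from RefSeq on GRCm38.p6, on the strand of the gene, in lower case with CANNTG (the E-box letters, which read the same on either strand) and TATAAA in capitals. Igfbp3 lies at chr11:7206086-7213923 on the minus strand and its window at chr11:7213924-7214173. Igfbp4 lies at chr11:99041244-99054392 on the plus strand, with its window at chr11:99040994-99041243. Igfbp7 lies at chr5:77349240-77408041 on the minus strand, with its window at chr5:77408046-77408295.
Igfbp3: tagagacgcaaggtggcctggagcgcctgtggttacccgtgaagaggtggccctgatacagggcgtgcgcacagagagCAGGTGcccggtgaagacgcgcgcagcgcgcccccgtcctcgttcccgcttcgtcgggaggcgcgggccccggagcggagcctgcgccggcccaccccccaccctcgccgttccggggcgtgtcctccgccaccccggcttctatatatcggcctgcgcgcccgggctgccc
Igfbp4: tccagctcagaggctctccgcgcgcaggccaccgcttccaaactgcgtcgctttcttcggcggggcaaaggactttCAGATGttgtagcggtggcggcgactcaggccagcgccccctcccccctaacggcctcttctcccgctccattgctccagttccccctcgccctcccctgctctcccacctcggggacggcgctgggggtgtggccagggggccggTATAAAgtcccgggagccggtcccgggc
Igfbp7: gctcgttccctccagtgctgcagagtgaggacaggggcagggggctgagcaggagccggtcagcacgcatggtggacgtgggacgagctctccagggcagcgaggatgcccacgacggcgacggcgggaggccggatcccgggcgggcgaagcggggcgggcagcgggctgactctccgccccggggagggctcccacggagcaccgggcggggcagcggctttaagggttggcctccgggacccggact

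Igfbp4 was the only member whose window held TATAAA, 28 bases before the start, a motif found in 12.37% of 32851 windows of that length. Igfbp3 and Igfbp4 held 1 CANNTG each and Igfbp7 none, while 66.22% of all windows held it. Igfbp7 held 4 copies of GGGCGG on either strand, a run found in 32.74% of windows, and neither Igfbp3 nor Igfbp4 held any. CCAAT, found in 33.85% of windows, was in none of these 3. Windows were matched for 7 of the 8 members, and Insr had none. Igfbp2 (chr1:72824503-72852474, plus strand) and Igfbp5 (chr1:72857932-72874884, minus strand) are neighbours. Igf1 lies at chr10:87858265-87937042 and Igf1r at chr7:67952827-68233668, both on the plus strand, and Insr at chr8:3122061-3279617 on the minus strand.

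Igf1 RNA was held by different cells at the 2 stages. At E9.5 endothelial cells held 51.1% (Clopper-Pearson 95% interval 48.09 to 54.11%) of the 1088 Igf1 UMIs with 4.177% of all UMIs, and mesenchyme held 20.86% with 38.44%. At E11.5 mesenchyme held 88.28% of 31080 Igf1 UMIs with 61.92% of all UMIs, and muscle held 6.332% with 19.6%. The class with the most Igf1 per UMI was thus endothelial at E9.5 and mesenchyme at E11.5.

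In endothelial cells Igf1 stood at 95.3 UPM (87.6 to 103.6) in the E9.5 library and 114.2 UPM (97.7 to 132.7) in the E11.5 library. That is a log2 ratio of 0.26 (0.01 to 0.51), within 2-fold. The order was the reverse in endothelial cells that did not meet the mesenchyme gate. Those had 114.1 UPM (104.3 to 124.6) at E9.5 and 74.1 UPM (58.3 to 92.8) at E11.5. Mesenchyme had 4.23 UPM (3.70 to 4.82) at the earlier stage and 341.5 UPM (337.5 to 345.6) at the later, a log2 ratio of 6.34 (6.15 to 6.53) or 80.8-fold. Endothelial cells stood 22.5-fold above mesenchyme at E9.5 (log2 ratio 4.49, 4.27 to 4.72) and 2.99-fold below it at E11.5 (log2 ratio -1.58, -1.81 to -1.36). Among E9.5 classes of at least 50 cells the next, the Myf5 step at 10.5 UPM, was separated from endothelial cells by its interval. The classes from sclerotome down to neural progenitors at 1.08 UPM were not separated from their neighbours in the order.

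The share of cells with an Igf1 UMI moved in the same way. Of mesenchyme cells 4.844% had at least 1 at E9.5, and 67.62% (66.45 to 68.78%) did at E11.5, and with every cell thinned to 5000 UMIs these shares were 2.455% and 53.59%. Of endothelial cells the thinned shares were 34.82% and 36%. Red blood cells, which should lack the gene, had an Igf1 UMI in 1.835% of cells of the E9.5 library and 7.576% of the E11.5 library, or 0% and 6.299% after thinning, with median depths of 14700 and 17167 UMIs against 12299 in E9.5 mesenchyme. At E9.5 the 0 of 104 red blood cells allows a share of up to 2.885% (3 counts of the total; the Clopper-Pearson bound is 3.485%), above the thinned share of mesenchyme, while neural progenitors had 0.4973% and crest or glial cells lay below mesenchyme by a log2 ratio of -1.83 (-2.91 to -0.92).

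**Figure D1:**
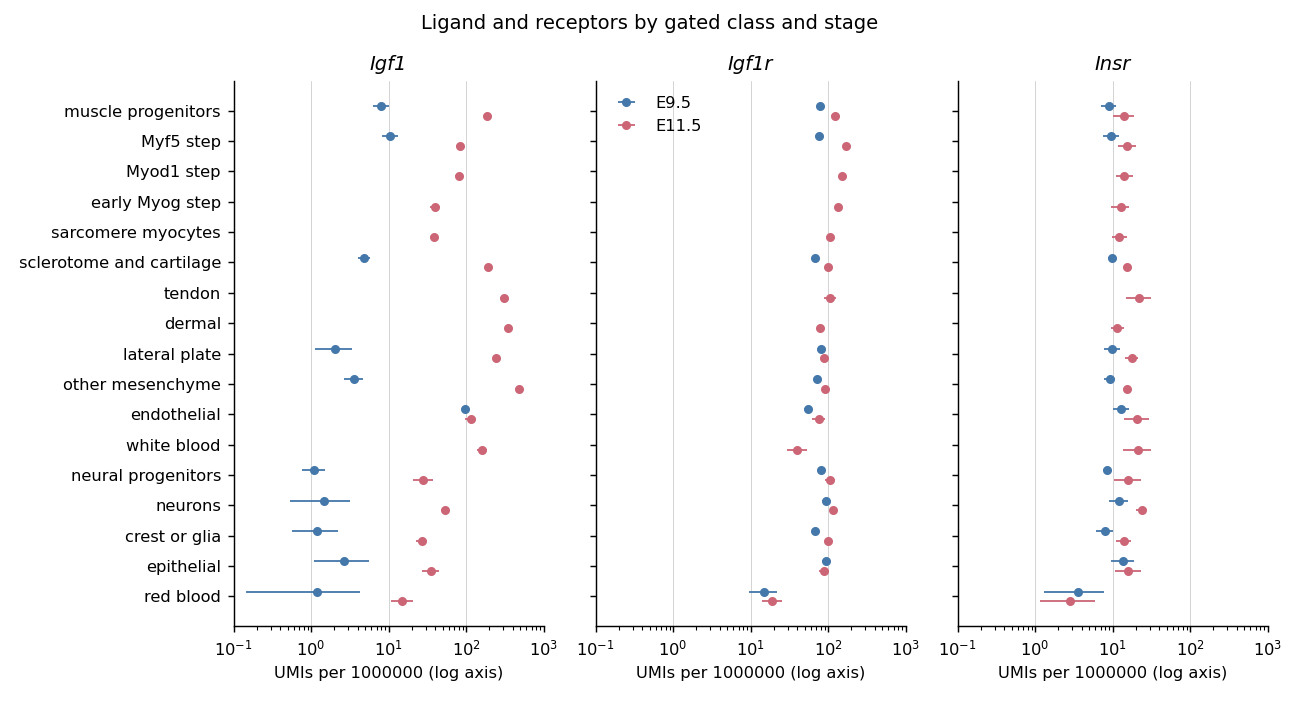
Levels of Igf1, Igf1r and Insr in UMIs per 1000000 on a log axis, for each class or mesenchyme subclass of at least 50 cells at each stage, with exact 95% Poisson intervals as bars. Igf1 in mesenchyme that met no subclass list (other mesenchyme) is at 3.55 and 488.4 UPM, while Igf1r stays between 54.5 and 171 UPM in every class but blood cells.

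All mesenchyme subclasses of at least 50 cells had high Igf1 at E11.5. It was at 488.4 UPM in mesenchyme that met no subclass list, 352.2 UPM in dermal, 305.8 UPM in tendon, 246.4 UPM in lateral plate and 189.3 UPM in sclerotome and cartilage cells, each separated from the next by its interval, and at 169 UPM in cells that met several lists. The same classes had been at 3.55, 2.02 and 4.79 UPM at E9.5 for the unlisted, lateral plate and sclerotome cells, which gives log2 ratios of 7.10 (6.73 to 7.51), 6.93 (6.18 to 7.80) and 5.31 (5.04 to 5.58). Sclerotome and cartilage cells were 2.01-fold below the rest of mesenchyme at E11.5.

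In neural, crest or glial, epithelial and red blood cells of E11.5, the Igf1 level differed widely by whether a cell also met the mesenchyme gate. Among neural progenitors it was 137.2 UPM in the 20 cells that met it and 0.731 UPM, 1 UMI, in the 145 that did not. Neurons had 186 UPM in 84 cells against 2.77 UPM in 402, crest or glial cells 62.7 UPM in 91 against 1.56 UPM in 161, and red blood cells 90.5 UPM in 14 against 0.967 UPM in 118. Epithelial cells had 118.4 UPM in 24 cells against 8.26 UPM in 96. The part of doublets in these levels was not tested. With the highest 8% of Scrublet doublet scores left out, Igf1 stood at 2.10 UPM in neural progenitors, 3.23 UPM in crest or glia, 3.04 UPM in red blood cells and 30.2 UPM in neurons.

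Endothelial and white blood cells were the classes outside mesenchyme and muscle that kept a high level without the gate. The 65 endothelial cells that did not meet it stood at 74.1 UPM (58.3 to 92.8) against 198.1 UPM in the 23 that did. At E9.5 the order was the reverse, with 114.1 UPM in the 295 endothelial cells that did not meet it and 40.3 UPM in the 69 that did. White blood cells, measured at E11.5 with 89 cells, stood at 135.6 UPM (113.1 to 161.3) in the 74 cells without the gate and 263.4 UPM in the 15 with it.

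**Figure D2:**
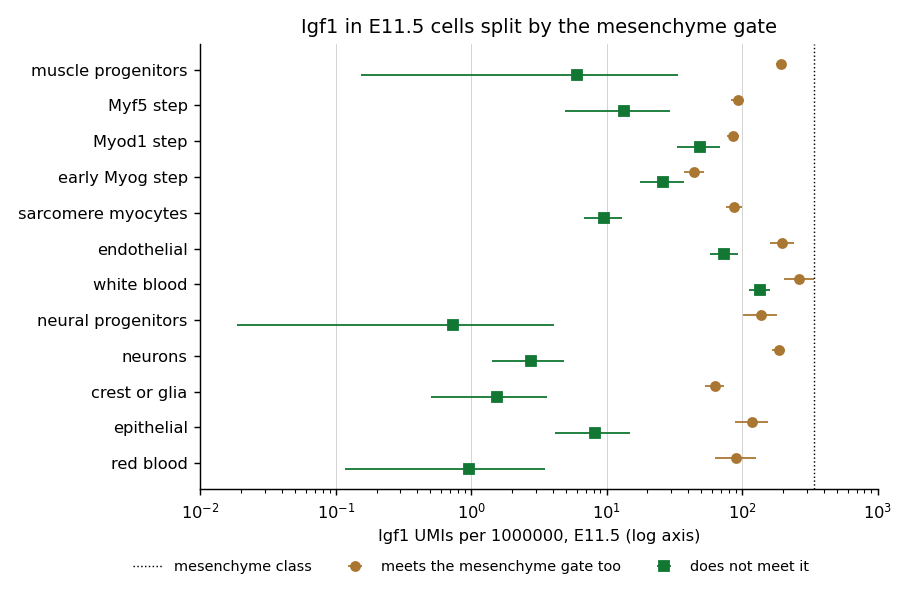
Igf1 in UMIs per 1000000 (log axis) in E11.5 cells of each class, split by whether the cell also met the mesenchyme gate, with exact 95% Poisson intervals as bars and the mesenchyme class at 341.5 UPM as a dotted line. Cells without the gate lie near 1 to 3 UPM in neural progenitors, neurons, crest and red blood cells, and at 74.1 and 135.6 UPM in endothelial and white blood cells.

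In muscle, Igf1 was at 9.99 UPM (8.57 to 11.6) over all E9.5 muscle cells, above mesenchyme by a log2 ratio of 1.24 (0.95 to 1.53), and at 77.4 UPM (74.0 to 80.9) at E11.5, below mesenchyme by a log2 ratio of -2.14 (-2.21 to -2.08). Along the E11.5 steps it stood at 183.4 UPM in progenitors, 83.5 UPM in the Myf5 step, 80.7 UPM in the Myod1 step, 39.4 UPM in the early Myog step and 38.9 UPM in sarcomere myocytes. This order rested on cells in mesenchyme clusters. In muscle clusters alone the levels were 44.9 UPM (31.1 to 62.8; 48 cells), 45.1 UPM (38.4 to 52.8), 54.6 UPM (47.8 to 62.0), 36.8 UPM (31.3 to 42.9) and 37.3 UPM (32.8 to 42.2), and the progenitor and myocyte intervals overlapped.

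Progenitors in mesenchyme clusters stood at 229.6 UPM. By the mesenchyme gate, sarcomere myocytes had 86.9 UPM in the 96 cells that met it and 9.52 UPM in the 260 that did not (log2 ratio of the latter over the former -3.19, -3.71 to -2.70). The Myod1 and early Myog steps had 48.7 UPM (32 UMIs in 10 of 43 cells) and 26.1 UPM (31 UMIs in 14 of 78 cells) without it, against 86.0 and 44.2 UPM with it. Progenitors and the Myf5 step had 6.03 UPM (1 UMI in 14 cells) and 13.4 UPM (6 UMIs in 3 of 32 cells) without it, against 193.6 and 92.8 UPM with it. At E9.5 the 24 early Myog cells, all in muscle clusters, had 17 Igf1 UMIs or 32.7 UPM (19.0 to 52.4), above the 8.78 UPM of progenitors in muscle clusters (6.83 to 11.1).

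Igf1r, the receptor for Igf1 and Igf2, was found in every class of at least 50 cells. Among the main classes of E9.5 it ran from 54.5 UPM in endothelial cells to 94.2 UPM in epithelial cells, leaving out red blood cells at 14.9 UPM and the subclasses of neural cells. At E11.5 it ran from 75.5 UPM in endothelial cells to 171.2 UPM in the Myf5 step among classes other than blood, with white blood cells at 39.7 UPM and red blood cells at 19.2 UPM. In the order of E11.5 levels the Myf5 step was separated from the Myod1 step, and from there to endothelial cells no neighbours were separated.

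The 4 highest Igf1r levels of E11.5 were in muscle steps. Over all muscle cells it was at 78.5 UPM at E9.5 and 135.2 UPM at E11.5, a 1.72-fold difference (log2 ratio 0.78, 0.69 to 0.88), and muscle stood above mesenchyme by a log2 ratio of 0.14 (0.05 to 0.23) at the earlier stage and 0.58 (0.52 to 0.64) at the later. The mix of steps differed, with progenitors 535 of 953 muscle cells at E9.5 and 192 of 1410 at E11.5. The E11.5 steps had 121.4 UPM in progenitors, then 171.2, 149.3, 134.4 and 105.8 UPM in the later steps. In muscle clusters alone progenitors had 79.8 UPM (73.7 to 86.3) at E9.5 and 169.1 UPM (141.1 to 201.1) at E11.5. Sarcomere myocytes of E11.5 were the lowest step there too, at 106.4 UPM (98.7 to 114.5). Muscle cells held 26.63% of the 12909 Igf1r UMIs of E11.5 with 19.6% of all UMIs.

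Floor plate progenitors, a subclass of neural progenitors, had more Igf1r than the main classes of E9.5. In 162 such cells of E9.5 it stood at 135.7 UPM (120.9 to 151.8) against 78.3 UPM in the other neural progenitors, a log2 ratio of 0.79 (0.62 to 0.97). Insr, the insulin receptor, was low throughout. Outside red blood cells and with mesenchyme subclasses included, it lay between 7.99 and 13.7 UPM in the main classes of E9.5 and between 11.6 and 23.7 UPM at E11.5. Outside red blood cells no class was separated from its neighbour in the order. Classes further apart did differ. Neurons of E11.5 held 7.164% (6.068 to 8.39%) of Insr UMIs with 4.612% of all UMIs, and sarcomere myocytes 4.188% (3.349 to 5.165%) with 5.214%.

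The binding proteins Igfbp2, Igfbp3 and Igfbp5 were higher at E11.5 than at E9.5 past 2-fold in mesenchyme, muscle progenitors, endothelial cells and neural progenitors, and Igfbp4 lay within 2-fold in all 4. Some of these summed levels rested on few cells. At E11.5 the highest 10% of neural progenitors held 100% of their Igfbp3 UMIs and 75.4% of Igfbp5. The highest 10% of endothelial cells held 87.28% of Igfbp5. At E9.5 these shares were 100%, 81.25% and 84.43%. In mesenchyme the E9.5 and E11.5 levels were 12.1 and 111.5 UPM for Igfbp2 (log2 ratio 3.20, 3.09 to 3.32), 5.94 and 83.1 UPM for Igfbp3 (3.81, 3.64 to 3.97), 103.4 and 563.6 UPM for Igfbp5 (2.45, 2.41 to 2.49) and 251.9 and 439.3 UPM for Igfbp4 (0.80, 0.77 to 0.83). Over all muscle cells the E11.5 level was 16.9-fold the E9.5 level for Igfbp2, 27.3-fold for Igfbp3, 4.90-fold for Igfbp5 and 1.10-fold for Igfbp4. The mix of muscle steps differed between the stages. In progenitors of muscle clusters the E9.5 and E11.5 levels were 9.67 and 202.1 UPM for Igfbp2 and 6.74 and 171.8 UPM for Igfbp3. They were 121 and 1075.5 UPM for Igfbp5 and 188.3 and 200.8 UPM for Igfbp4.

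The cells that held most Igfbp3 differed between the stages. Endothelial cells held 43.02% of its 1676 UMIs at E9.5 with 4.177% of all UMIs, and 4.251% of 14398 at E11.5 with 1.154%. At E11.5 mesenchyme held 46.39% with 61.92% of all UMIs, and muscle 42.17% with 19.6%. The endothelial level of Igfbp3 nonetheless was the highest of any class at both stages, 123.6 UPM (20.8-fold above mesenchyme) at E9.5 and 408.7 UPM (4.92-fold) at E11.5. The thinned share of endothelial cells with an Igfbp3 UMI was 30.95% at E9.5 and 62.67% at E11.5, against 0.9615% and 0.7874% of red blood cells.

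Within E11.5 muscle, Igfbp3 was higher in both Myog steps than in the earlier steps, and Igfbp2 was highest in the early Myog step. Igfbp3 had 118.7 UPM in progenitors, 192.3 UPM in the Myf5 step, 204.9 UPM in the Myod1 step, 334.5 UPM in the early Myog step and 299.6 UPM in sarcomere myocytes. Igfbp2 had 122.3, 214.6, 228.9, 289.8 and 203.4 UPM in the same order. The early Myog step stood above progenitors by log2 ratios of 1.49 (1.33 to 1.66) for Igfbp3 and 1.24 for Igfbp2. Of the progenitors in muscle clusters, Igfbp3 stood at 171.8 UPM (143.5 to 203.9) and Igfbp2 at 202.1 UPM (171.4 to 236.8), so the Igfbp2 levels of progenitors and sarcomere myocytes (203.9 UPM there) overlapped while those of Igfbp3 (301 UPM) did not.

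Igfbp5, a binding protein of bone and muscle, was lower in sarcomere myocytes than in any earlier step. It was at 865.3, 720.3, 741.7, 683.8 and 432.8 UPM from progenitors to sarcomere myocytes, and the myocyte level was 1.999-fold below that of progenitors, just inside 2-fold. In muscle clusters the ends were 1075.5 UPM (1002.8 to 1151.9) and 435.5 UPM. Igfbp4 was highest in progenitors at 337.2 UPM and lay between 166.6 and 211.7 UPM in the later steps, and in muscle clusters progenitors and sarcomere myocytes had 200.8 UPM and 212.6 UPM.

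**Figure D3:**
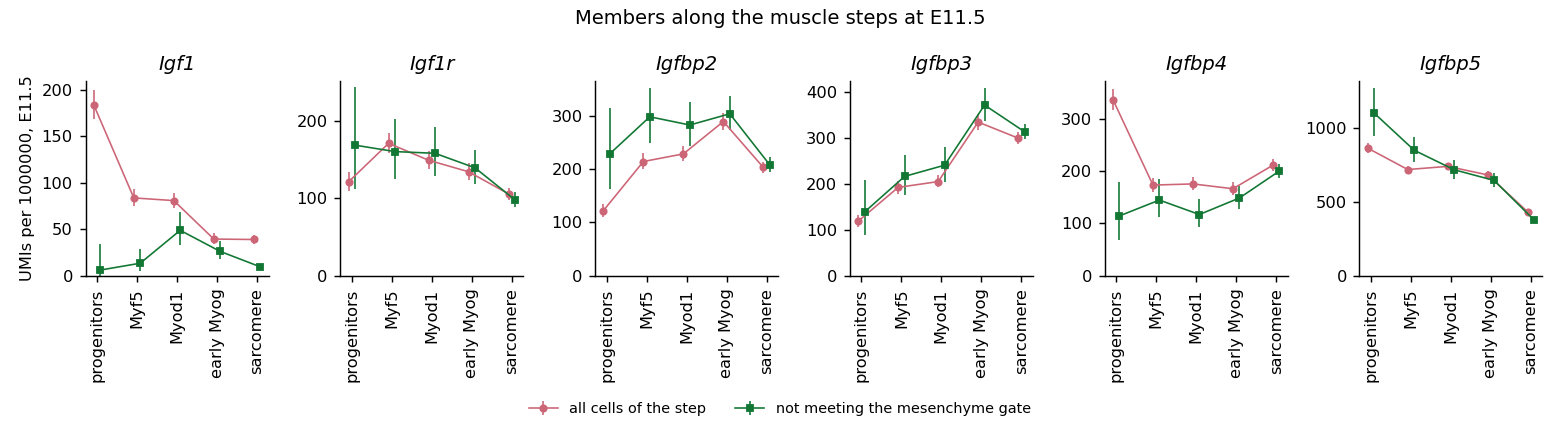
Levels of the ligand, Igf1r and the binding proteins in UMIs per 1000000 along the muscle steps of E11.5, with exact 95% Poisson intervals, for all cells of a step (circles) and for those that did not meet the mesenchyme gate (squares). In all cells Igfbp3 goes from 118.7 to 334.5 and 299.6 UPM, Igfbp5 from 865.3 to 432.8 UPM and Igf1 from 183.4 to 38.9 UPM.

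In sarcomere myocytes these binding protein levels differed far less by the mesenchyme gate than Igf1. Sarcomere myocytes that met it and those that did not had 277.1 and 313.4 UPM of Igfbp3, 195.2 and 208.3 UPM of Igfbp2, and 118.5 and 98.1 UPM of Igf1r, where Igf1 differed 9.12-fold. Igfbp5 had 523 UPM in those meeting the gate and 377.6 UPM in the others. Among progenitors Igfbp4 had 350 UPM in the 178 cells that met the gate and 114.5 UPM in the 14 that did not.

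Outside muscle and mesenchyme, epithelial cells stood out for Igfbp2 at both stages, and for Igfbp5 among the main classes of E9.5. Igfbp2 was at 132 UPM in epithelial cells of E9.5 and 902.5 UPM (858.6 to 948.1) at E11.5, the highest of any class at either stage, and at E11.5 these 120 cells held 8.783% of its 18023 UMIs with 1.352% of all UMIs. Neural progenitors held the largest share at E9.5, 45.41% of the 4732 Igfbp2 UMIs, at 64.2 UPM against 261.9 UPM at E11.5. Epithelial Igfbp5 was at 437.1 UPM at the earlier stage and 711.5 UPM at the later. At the later stage it was not separated from crest or glial cells at 691.7 UPM (log2 ratio 0.04, -0.05 to 0.13).

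Igfbp5 was uneven within the neural classes. Floor plate progenitors of E9.5 had 461.7 UPM against 39.1 UPM in other neural progenitors, an 11.8-fold difference (log2 ratio 3.56, 3.44 to 3.68). Crest or glial cells had 38.0 UPM at E9.5 and 691.7 UPM at E11.5, 18.2-fold more. Igfbp4 by contrast was highest in endothelial cells at both stages, at 828.8 and 786.1 UPM, and found in 97.32% and 98.67% of them after thinning.

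Igfbp7, a binding protein of low affinity for the ligands, was nearly absent at E9.5, with 23 UMIs in 9851 cells. At E11.5 it had 453 UMIs, of which 213 (47.02%) lay in a cluster of 243 cells led by Vtn, Igfbp7 and Rgs5, and only 18 of those cells had a UMI. Of these 243 cells, 229 were mesenchyme by gate and 4 endothelial. The endothelial class stood at 90.2 UPM, but 3 cells of that cluster held 106 of its 135 UMIs. Without the cluster, endothelial cells had 20.3 UPM (29 UMIs in 13 of 84 cells) and mesenchyme 0.937 UPM (73 UMIs), a difference by a log2 ratio of 4.44 (3.76 to 5.08) against 5.66 (5.31 to 6.01) with it. Over E9.5 the endothelial ratio was 6.45 (5.29 to 7.93) on the log2 scale with the cluster and 4.30 (3.01 to 5.86) without it, the latter from fewer than 100 UMIs together. Neurons of E11.5 held 60 UMIs in 28 cells.

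Counts of members past 2-fold were read beside the share of all genes past it in the same comparison, among genes with at least 100 UMIs in both classes together that are in no gate list. Between stages in mesenchyme, 5 of 8 members were higher at E11.5 (Igf1, Igfbp2, Igfbp3, Igfbp5 and Igfbp7) and none lower, against 17.2% of all tested genes higher and 4.24% lower, and the median log2 ratio was 2.82 for the members and 0.19 for all genes. In muscle progenitors 4 of 7 were higher and none lower, beside 8.80% and 4.96%, with medians of 2.82 and 0.06. In endothelial cells 4 of 8 were higher (Igfbp2, Igfbp3, Igfbp5 and Igfbp7) and none lower, beside 4.82% and 2.27%, with medians of 1.16 and 0.03. With 1 more marker asked of an endothelial cell, Igfbp5 lay within 2-fold at a log2 ratio of 0.35. Igfbp7 passed the filter of 100 UMIs only through E11.5, with 6 and 135 UMIs in endothelial cells and 6 and 143 in mesenchyme. Of these E11.5 UMIs, 106 lay in 3 endothelial cells and 70 in 12 mesenchyme cells of the cluster led by Vtn. Without that cluster Igfbp7 had fewer than 100 UMIs in the endothelial comparison, so its place in these counts rests on few cells. In neural progenitors 3 of 6 were higher (Igfbp2, Igfbp3 and Igfbp5) and none lower, beside 11.0% and 5.17%, with medians of 1.42 and 0.13.

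**Figure D4:**
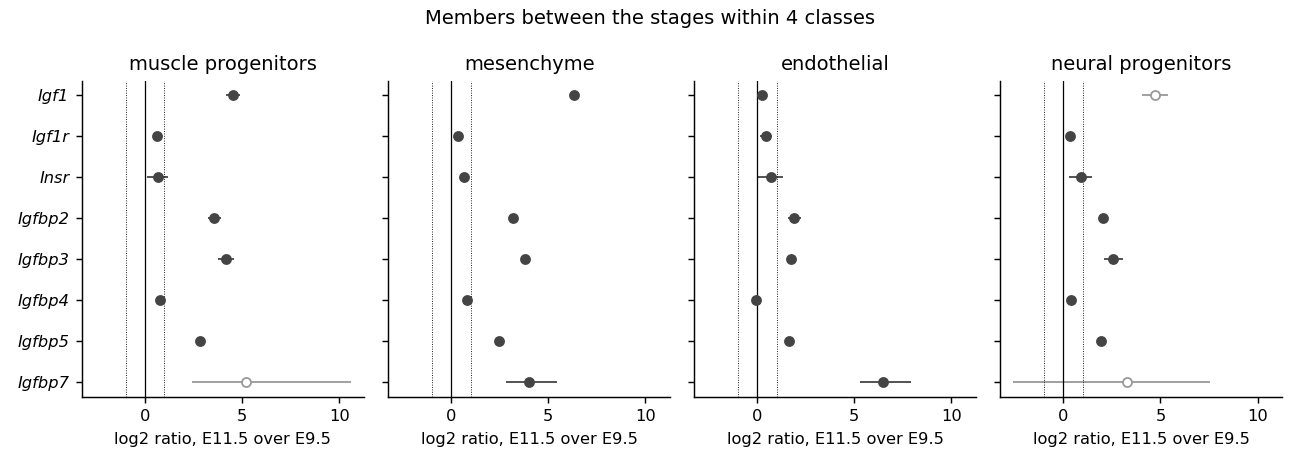
Log2 ratios of E11.5 over E9.5 for the 8 members in mesenchyme, muscle progenitors, endothelial cells and neural progenitors, with exact 95% intervals. Open grey points have fewer than 100 UMIs together and dotted lines mark 2-fold, and Igfbp4, Igf1r and Insr lie between the lines in all 4 classes.

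Between classes of E11.5 the members split. In endothelial cells over mesenchyme Igfbp3 and Igfbp7 were higher and Igf1 and Igfbp5 lower, 2 and 2 of 8, beside 9.77% and 17.9% of all genes, with medians of 0.12 and -0.16. In neural progenitors over mesenchyme Igfbp2 was higher (log2 ratio 1.23, 1.09 to 1.37) and 5 of 8 were lower, beside 7.67% and 14.3%. The 5 were Igf1 (-3.61), Igfbp3 (-1.60), Igfbp4 (-1.64), Igfbp5 (-1.12) and Igfbp7 (-1.61), the last from 1 UMI in neural progenitors with an interval of -6.92 to 0.89, and the medians were -1.36 and -0.02.

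In sarcomere myocytes over muscle progenitors, Igfbp3 was higher (1.34, 1.17 to 1.50) and Igf1 lower (-2.24, -2.45 to -2.02), 1 and 1 of 7, beside 10.4% and 11.5%, with medians of -0.20 for members and all genes alike. Both calls were lost with clusters in place of gates, at log2 ratios of 0.46 for Igfbp3 and -0.48 for Igf1. By clusters the progenitors were 667 cells, against 192 by gates. Such clusters were named by mean Myod1, Myog, Pax3 and Pax7, with no limit on Myf5, so the cells compared differ too. In mesenchyme over muscle progenitors none of 7 members was past 2-fold at E9.5, where 3.38% of genes were higher and 0.955% lower, with medians of -0.14 and 0.04. At E11.5 none of 8 was higher and Igfbp7 was lower (-1.14, -1.99 to -0.16, from 12 UMIs in progenitors), beside 6.12% and 1.61%, with medians of -0.28 and 0.05. With clusters in place of gates the count past 2-fold at E11.5 was 5 rather than 1, Igfbp7 turned to 1.69, and Igf1 stood at 2.85 and Igfbp4 at 1.22. Igf1 itself lay within 2-fold in both, at -0.91 (-1.29 to -0.51) and 0.90 (0.78 to 1.02), and at E11.5 the mesenchyme level of 341.5 UPM stood against 44.9 UPM in the 48 progenitors in muscle clusters.

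Mesenchyme of E11.5 was not of 1 kind for these genes. Over its 12 clusters Igf1 ran from 94.8 UPM to 792.3 UPM (median 243.8), 8.36-fold, Igfbp5 from 108.7 to 1403.1 UPM, 12.9-fold, and Igfbp3 from 7.73 to 221 UPM, 28.6-fold. Igf1r ran from 78.2 to 132.9 UPM, 1.70-fold, and Igfbp4 from 322.5 to 757.5 UPM, 2.35-fold. These clusters were made without the 8 genes, but genes that vary with them were used, so the ranges are a description.

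**Figure D5:**
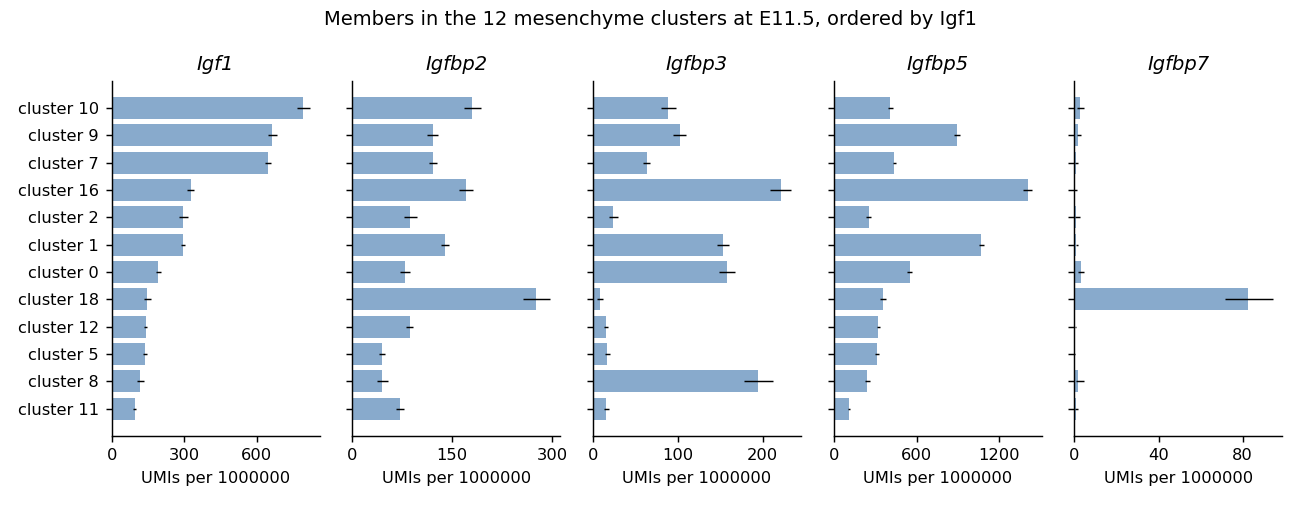
Levels of Igf1, Igfbp2, Igfbp3, Igfbp5 and Igfbp7 in UMIs per 1000000 in each of the 12 mesenchyme clusters of E11.5, 1 panel a gene with its own axis from 0, with exact 95% Poisson intervals as lines. Igf1 is highest in cluster 10 at 792.3 UPM, and Igfbp5 and Igfbp3 in cluster 16 at 1403.1 and 221 UPM.

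The leading genes of the clusters at the ends of these ranges were named after their values were seen. The highest Igf1 levels were in cluster 10 (460 cells, led by Sostdc1, Tbx15, Irx1 and Shox2), cluster 9 (663.4 UPM, led by E330013P04Rik, 2610016A17Rik, Lhx9 and Dmrt2) and cluster 7 (645.3 UPM, led by Tbx15, Rspo1, Emx2 and Osr1). The lowest was in cluster 11, led by Foxf1 and Foxf2. Igfbp3 and Igfbp5 were highest in cluster 16, whose 533 cells were led by Chodl, Ephb1, Gsc and Scx. Igfbp2 was highest in cluster 18 at 276.4 UPM, with 180.1 UPM in cluster 10. Igfbp4 was highest in cluster 10 at 757.5 UPM. The cluster highest in the ligand was thus also the highest in Igfbp4, and not in Igfbp2, Igfbp3 or Igfbp5.

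Within E11.5 mesenchyme, cells with an Igf1 UMI had binding protein UMIs more often. At 5000 UMIs a cell, Igfbp5 was found in 62.45% of 3252 cells with Igf1 and 44.78% of 2816 without, Igfbp2 in 38.71% and 28.3%, and Igfbp3 in 22.97% and 15.48%, while Igf1r was found in 33.61% and 35.44%. Within the cells that met no subclass list the gaps were smaller, at 70.15% and 56.65% for Igfbp5, 44.28% and 39.48% for Igfbp2, and 27.61% and 24.82% for Igfbp3, and the intervals of the last pair, and of the Igfbp2 pair, overlapped. In E11.5 muscle the order was the reverse for Igfbp3 (41.15% of 243 cells with Igf1 and 60.53% of 1125 without) and Igfbp2 (45.27% and 62.58%), and Igfbp4 was found in 74.49% and 54.13%. The muscle shares pool all steps and clusters. Progenitors in mesenchyme clusters had 229.6 UPM of Igf1 and 101.5 UPM of Igfbp3, and those in muscle clusters 44.9 and 171.8 UPM. The order within a step or cluster was not tested. Cells are not replicates, and these shares are a description of the libraries.

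Counting how many of the 5 binding proteins a cell had at 5000 UMIs, the mean was 1.00 in mesenchyme, 1.58 in endothelial and 1.88 in epithelial cells at E9.5. At E11.5 it was 1.93 in mesenchyme, 2.27 in endothelial and 2.80 in early Myog cells, of which 68.14% had 3 or more, and 0.165 in red blood cells. Other classes of E11.5 were close to early Myog cells. The mean was 2.62 in the Myod1 step, 2.6 in epithelial cells and 2.55 in the Myf5 step. It was 2.42 in sarcomere myocytes and 2.295 in muscle progenitors.

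Of the 53 other pathway genes listed, between 27 and 48 were tested in a comparison, and their counts stand beside the shares of all genes given above. No split by cluster is given for these genes, and 143 of the 192 progenitors of E11.5 lay in mesenchyme clusters. Their values against E11.5 progenitors thus cannot be read as differences among muscle cells alone. Between stages, Igf2, the fetal ligand, was higher at E11.5 in mesenchyme (134.4 and 494.1 UPM, log2 ratio 1.88), muscle progenitors (120 and 453 UPM, 1.92) and neural progenitors (29.1 and 102.3 UPM, 1.82). In mesenchyme 4 of 48 were higher (all genes 17.2%), with Pappa2, a protease of binding proteins (2.35), and Htra1, a secreted protease (1.83), and 3 lower: Stc2, an inhibitor of the Pappa proteases (-2.89), Eif4ebp1, a repressor of translation downstream of mTOR (-1.30), and Irs4, an adaptor (3.17 UPM at E9.5 and 1.58 UPM at E11.5). In muscle progenitors 3 of 35 were higher (all genes 8.80%), with the PI3 kinase subunits Pik3r1 (2.22) and Pik3r3 (1.42), and 2 lower, the kinase gene Mapk3 (-1.28) and Adamts1 (-1.06). Pik3r1 was also higher in endothelial cells (1.13), where it was the 1 gene past 2-fold of 27, and in neural progenitors (1.36), where 4 of 41 were higher (all genes 11.0%), with Foxo1 (1.04), and 3 lower, with Pappa (-3.56), Stc2 (-3.00) and Eif4ebp1 (-1.44).

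Between classes, the E11.5 progenitors are again those taken by gate, most of them in mesenchyme clusters. Sarcomere myocytes had 7 of 36 other pathway genes higher than these progenitors and 2 lower, where 10.4% and 11.5% of all genes were. The higher ones included Inppl1, a lipid phosphatase (2.26), Socs2, an inhibitor of cytokine signalling (1.85), and Foxo1, a transcription factor that Akt inhibits (1.76), and the lower ones were Shc1 (-1.25) and Pik3r3 (-1.18), an adaptor and a PI3 kinase subunit. Endothelial cells had 8 of 46 higher than mesenchyme (all genes 9.77%), led by Foxo1 (2.41), Htra3 (2.01) and Stc1 (1.85), and 6 lower (17.9%), led by Foxo4 (-2.20), Irs2 (-1.92) and Pappa (-1.55, -3.83 to 0.01). Neural progenitors had 1 of 46 higher than mesenchyme (all genes 7.67%), Igfbpl1, which resembles the binding proteins (5.61), and 11 lower (14.3%), led by Grb14 (-2.34, -7.65 to 0.15), Pappa (-2.32) and Igf2 (-2.27).

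Mesenchyme over muscle progenitors had 3 of 44 higher at E9.5, Irs4 (2.56), Stc1 (1.69) and Adamts1 (1.26), and 1 lower, Stc2 (-1.05). At E11.5 it had 3 of 45 higher, Htra1 (2.82, 0.32 to 8.13), Adamts1 (1.85) and Irs4 (1.58 UPM against 0 UMIs), and 3 lower, Pappa2 (-1.94), Stc1 (-1.20) and Pik3r1 (-1.05).

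Igf2 had a wider spread of source cells than Igf1. At E9.5 it was at 268.6 UPM in endothelial cells and 134.4 UPM in mesenchyme, a narrower gap than for Igf1, and at E11.5 it was at 494.1 UPM in mesenchyme, 530.3 UPM in endothelial cells and 564.8 UPM in sarcomere myocytes. Igf2r, the receptor that clears Igf2, was at 121.1 UPM in sarcomere myocytes and 51.2 UPM in progenitors taken by gate. Igfbpl1 was at 99.0 UPM in neurons at E9.5 and 367.1 UPM at E11.5.

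Over the 28 classes of at least 50 cells, the 3 genes of 11632 with the most similar profile were taken for each member by Pearson r of log2(UPM + 5), as a description, since the classes share 2 libraries. For Igf1 they were Ssbp4 (r = 0.917), Hic1 (0.913) and Nfib (0.903), and for Igf1r Phip (0.957), Dzip3 (0.941) and Mthfd2l (0.928). For Insr they were Alas1 (0.922), Myl12b (0.921) and Ppp2r5c (0.921). Igfbp2 was nearest to Ier5 (0.868), Taz (0.850) and Eif3f (0.820), Igfbp3 to Anxa6 (0.906), Plagl1 (0.869) and Itm2a (0.849), Igfbp4 to Cd81 (0.926) and Rrbp1 (0.920), Igfbp5 to Spry2 (0.905), Spin1 (0.884) and Ccdc112 (0.883), and Igfbp7 to Klhl8 (0.866), Cav1 (0.859) and Nxpe4 (0.852). Between members r was 0.80 for Igfbp2 with Igfbp5, 0.79 for Igf1r with Igfbp5, 0.69 for Igf1 with Igfbp3 and 0.30 for Igf1 with Igf1r.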

How the data were processed

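Inter-limb somites of 3 pooled wild-type C57BL/6 embryos were dissociated at each stage and made into 1 10x Genomics 3′ library. The authors aligned reads to mm10 with Cell Ranger 3.0.1, per the submitters' processing notes, and deposited raw UMI counts per gene and barcode, without normalization and before their own cell filter.

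Cells with at least 200 and fewer than 6500 genes and under 15% mitochondrial UMIs were kept, leaving out 270 E9.5 and 572 E11.5 barcodes. 30 barcode sequences occur in both libraries (0.296% and 0.295% of their barcodes). Doublets were left in; Scrublet marked 587 E9.5 barcodes and 0 at E11.5, so its automatic threshold did not work there and the highest 8% of scores were removed in an alternative. A gate needed 2 or 3 markers of its list; cells meeting several gates of other tissues were left out as mixed. UMIs were summed per class, with exact Poisson, ratio and Clopper-Pearson 95% intervals. A gene counted as past 2-fold with at least 100 UMIs in both classes together. Muscle and mesenchyme clusters were Leiden clusters (resolution 0.8, 2000 variable genes without the 8 members, 18 dimensions, 20 neighbours).

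The ratio calculation was tested on simulated data for mesenchyme over muscle progenitors at E11.5 (6549 genes): 200 of 200 changed genes were recovered and 95.5% of intervals held the true ratio. The simulated counts were Poisson, as the intervals assume, so this coverage was fixed in advance and checks the arithmetic only. It does not show that the intervals hold where UMIs are clumped in few cells or for genes with few UMIs. Members, lists and comparisons were chosen with earlier results of these data known. Named genes are the members, other pathway genes past 2-fold (at most 3 each way per comparison, or a level quoted beside them) and the 3 most similar profiles per member. For Igfbp4, 1 of these 3 is not reported here. Other named genes are markers, or were chosen after their values were seen. Alternatives were a stricter gate, removal of high doublet scores, at least 1000 genes, thinning to 5000 UMIs, the mean over cells, muscle cells without the mesenchyme gate, clusters in place of gates, sarcomere thresholds of 10 and 100 UMIs, at least 30 UMIs of a gene and a 1.5-fold threshold. The Scrublet alternative and the splits of muscle cells by gate and cluster were added after the data were seen, as was leaving out the cluster led by Vtn, Igfbp7 and Rgs5. Python 3.11.15, numpy 2.4.6, scipy 1.17.1, pandas 2.3.3, scanpy 1.11.5 and matplotlib 3.10.9 were used. Positions of genes were taken from GENCODE M21 (GRCm38).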

Additional observations from a re-analysis of the deposited data

Results flagged for a closer look

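The Igf1 log2 ratio of mesenchyme over muscle progenitors was -0.91 at E9.5 and 0.90 at E11.5, opposite in sign at the 2 stages. The difference between the stages was not tested, since each has 1 library. Beside it, 143 of 192 progenitors of E11.5 lay in mesenchyme clusters, and in muscle clusters alone progenitors had 8.78 UPM at E9.5 and 44.9 UPM at E11.5.

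Cells that were placed in no class and entered no comparison also held Igf1, at 2.342 UPM in 1126 cells of E9.5 and 189.8 UPM in 548 cells of E11.5. Of these, 35 and 156 met the mesenchyme gate but not the rest of the rule for that class.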

How the results depend on the processing

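Of 507 values recomputed under 11 settings, 475 kept their side of the threshold and 4 fell inside it. Another 27 came to lie past it (14 of these at 1.5-fold, where only the threshold differs), and 1 past it changed sign. The count of members past 2-fold moved by more than 1.5 times in these cases. For mesenchyme over muscle progenitors at E9.5 (0 with the settings of the report) it was 2 with 1 more marker in every gate, 1 without the highest Scrublet scores, 2 with thinned cells, 1 with clusters in place of gates and 1 at 1.5-fold. With the former 4 settings Igf1 lay past 2-fold, at log2 ratios of -1.53, -1.02, -1.16 and -1.04. At E11.5 (1 in the report) that count was 0 with thinned cells, 5 with clusters and 3 at 1.5-fold. With clusters Igf1 stood at 2.85 and Igfbp4 at 1.22 in mesenchyme over progenitors, Igfbp2 at -1.09 and Igfbp3 at -1.37, and Igfbp7 reversed to 1.69. Progenitors of E11.5 were 667 cells by clusters and 192 by gates, so this setting also changed which cells were compared. The cause of the differences was not tested. For sarcomere myocytes over progenitors (2 in the report) the count was 0 with clusters, where Igf1 stood at -0.48 and Igfbp3 at 0.46, and 5 at 1.5-fold. For progenitors between stages (4) it was 7 at 1.5-fold. For endothelial cells between stages (4) it was 2 with 1 more marker, where Igfbp5 stood at 0.35, and 2 with thinned cells. Where Igf1, Igfbp2, Igfbp3, Igfbp4 or Igfbp5 lay past 2-fold in the report, no direction was reversed by any of the settings run. Changes of sign within 2-fold are not listed.

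Not run for want of 50 cells were the stricter gate (17 cells) and the removal of muscle cells meeting the mesenchyme gate (14 cells) in the 3 comparisons with E11.5 progenitors, and clusters in the endothelial comparisons with E11.5 cells, since no cluster there was named endothelial. No paired analysis was possible because each stage has 1 library. Depth limits Igfbp7 and Insr most, and at E9.5 Igf1 outside endothelial and muscle cells.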
